A study of Mus musculus with 4 samples.

Results

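The 9 genes described here encode the mouse vascular endothelial growth factor (VEGF) family members *Vegfa*, *Vegfb*, *Vegfc* and *Pgf*, their receptor tyrosine kinases *Flt1*, *Kdr* and *Flt4*, and the neuropilin co-receptors *Nrp1* and *Nrp2*. They were found by gene symbol among the non-control probes of the arrays, through the RefSeq accession that each probe carries. Their probes were taken by symbol and not by measured value, but the genes were chosen with earlier results of these data known. They made up 9 of the 45604 genes tested and 17 of the 56593 probes tested. Septal nasal mucosa, labelled as olfactory epithelium, was taken from C57BL/6 mice (B6 and C57BL/6J in the labels), described as male in the study's methods, and its RNA was measured on 4 one-color Agilent arrays. The 2 young adult arrays came from mice 8 weeks old and the 2 aged arrays from mice 16 months old. Each array held the RNA of a pool of 5 mice, and the methods count too few mice of an age in the gene work for separate pools, so mice may have entered both, and the spread between arrays is that between pools and may be partly technical. The labels also carry a description of silica treatment and lung that matches neither the titles nor the study, and it was not used.

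Some properties of the arrays bear on every value. Array 1 of each age was on a shared slide, while the other two arrays each had a slide of their own. Between 63.1 and 76.8% of the spots were well above background. The probe of *Xist*, the RNA of the inactive X chromosome, was above background on all 4 arrays with normalized intensities of 612 to 645, and none of the 10 probes of 7 Y-linked genes was above background on any array (7.48 to 52.2), which goes against the stated male sex in both age groups alike. *Omp*, the defining marker of mature olfactory receptor neurons (ORNs), and *Cyp2g1*, a marker of sustentacular cells, were above background on all 4 arrays. With 2 arrays per age, the smallest P of an exact permutation test (two-sided) is 0.333 for any gene, so the tests come from limma's moderated model over all genes.

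VEGF ligands are secreted proteins that bind receptor tyrosine kinases on endothelial cells. VEGF-A acts mainly through the kinase encoded by *Kdr* to drive growth and permeability of blood vessels, *Flt1* binds VEGF-A, VEGF-B and placental growth factor (PlGF, from *Pgf*) and can hold ligand away from *Kdr*, and VEGF-C acts through *Flt4* on lymphatic vessels. Neuropilins bind VEGF ligands beside the kinases, and they also bind class 3 semaphorins, through which they guide the axons of ORNs to the olfactory bulb.

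*Flt1*, *Kdr* and *Vegfc* were lower in aged than in young adult mice, by 1.52-fold, 1.51-fold and 1.58-fold, and no gene of the family was called higher. All 9 genes had a mean log2 difference below 0, as did 48.5% of all genes tested. For 8 of the 9 genes the aged arrays were both lower than either young adult array, an order found in 21.8% of all genes, and *Nrp2* was the exception. The opposite order, found in 24.2% of all genes, occurred for 0 of the 9. Calls needed P below 0.05 together with a false discovery rate (FDR, Benjamini-Hochberg) below 0.25, the thresholds of the study. By limma 3 of the 9 genes were called lower, against 2.33% of all genes tested, and 0 were called higher, against 1.65%. At an unadjusted P below 0.05 the counts were 4 lower and 0 higher, against 7.08 and 6.05% of all genes. The same 3 genes also had a mean expression of at least 100 and a fold change of at least 1.5, as did 1.15% of all genes in the downward direction, and 0 of the 9 met these limits upward, as 0.814% of all genes did. The median log2 difference of the 9 genes was -0.40, and that of all genes tested was 0.0093. In RNA of whole mucosa, fewer cells of a type and less RNA per cell cannot be told apart. With the replicate number as a block, limma called 0 of all 45604 genes, so the absence of calls there says nothing about the 9 genes. With any of the 4 arrays left out an age had no replicate, so no calls are read from those fits and only their log2 differences are given.

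**Figure D1:**
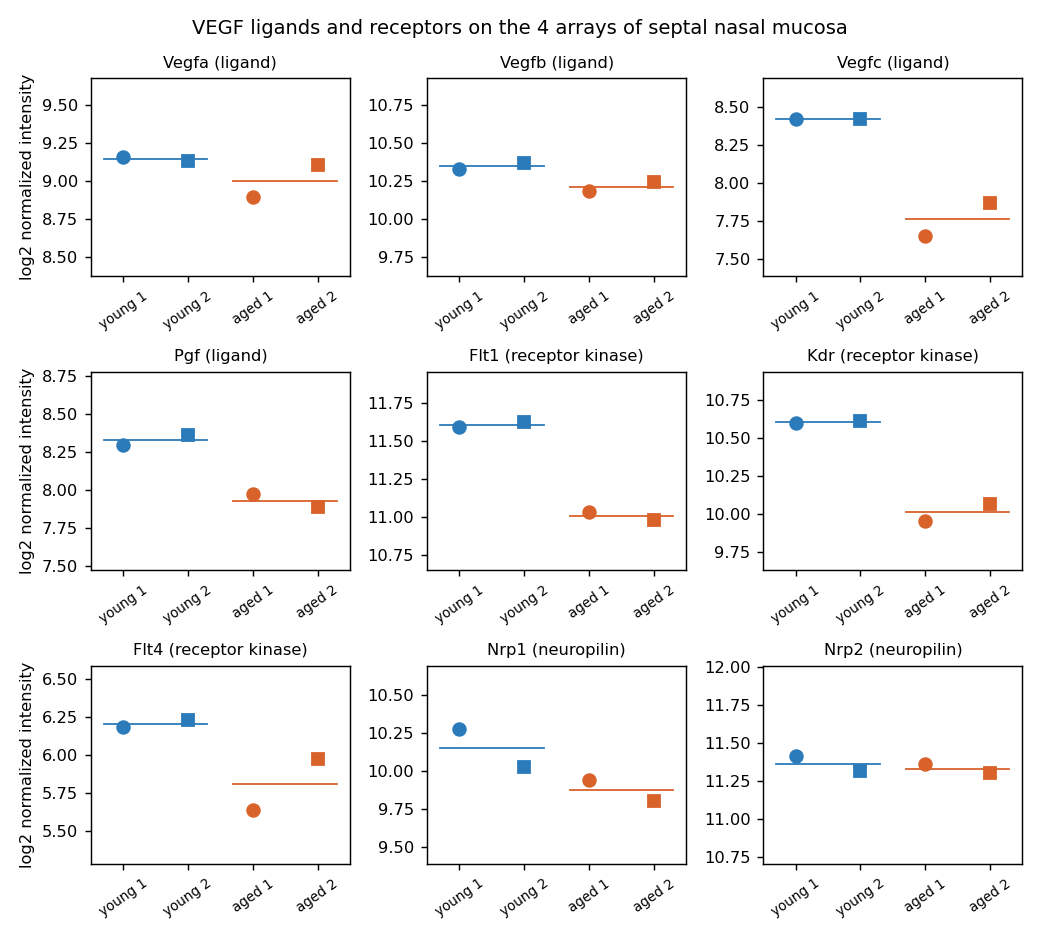
Log2 normalized intensity of the 9 VEGF ligand and receptor genes, a panel per gene, with a point for each of the 4 arrays (blue young adult, orange aged) and a line at the mean of each age. For *Flt1*, *Kdr* and *Vegfc* the gap between the ages is wider than the gap within either age. The same holds for *Pgf* and *Vegfb*, which were not called, while the points of *Nrp2* overlap.

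Among the ligands, *Vegfc*, the growth factor for lymphatic vessels, had normalized intensities of 342 and 341 in the young adult pools and of 201 and 234 in the aged pools. The young adult mean was 342 ± 0.599 (SD, n = 2 pools) and the aged mean 217 ± 23.1. Both aged arrays were below both young adult arrays, and the gap between ages was wider than the gap within either. The log2 difference was -0.66 (standard error 0.11, 95% confidence interval -0.99 to -0.33, limma FDR = 0.233), which is 1.58-fold lower in aged mice. It was -0.77 between the 2 arrays that share a slide and -0.55 between the other two arrays.

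*Pgf*, encoding PlGF, a ligand of *Flt1* alone among the kinases, stood at 313 and 329 in young adult pools and at 251 and 237 in aged pools. The arrays did not overlap between ages. The log2 difference of -0.40 (standard error 0.085, 95% confidence interval -0.65 to -0.14) had a limma FDR of 0.270, above the threshold. It was called under 7 of the alternative settings, among them a normexp offset of 16 (limma FDR = 0.221).

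*Vegfa*, the main angiogenic ligand, gave 572 and 561 in young adult pools against 476 and 551 in aged pools. Aged array 2 lay just under the young adult arrays and aged array 1 well below them, and the log2 difference was -0.15 (standard error 0.11, 95% confidence interval -0.47 to 0.18, limma FDR = 0.638). The difference became -0.040 when aged array 1 was dropped and -0.25 when aged array 2 was dropped, and the most intense of its probes gave -0.43. *Vegfb*, a ligand of *Flt1* linked to fatty acid uptake in muscle vessels, gave 1288 and 1324 in young adult pools and 1164 and 1213 in aged pools. Its arrays were separated by age, with a log2 difference of -0.14 (standard error 0.079, limma FDR = 0.561) that was not past the threshold. The confidence intervals allow a fall of up to 0.47 on the log2 scale for *Vegfa* and of 0.37 for *Vegfb*.

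Among the receptor kinases, *Flt1* (VEGFR-1) had normalized intensities of 3090.05 and 3159 in the young adult pools and of 2094 and 2025 in the aged pools. The ages were far apart relative to the spread within them, with means of 3124 ± 48.5 (SD, n = 2 pools) and 2059 ± 48.9. The log2 difference was -0.60 (standard error 0.077, 95% confidence interval -0.83 to -0.37, limma FDR = 0.201), or 1.52-fold lower in aged mice.

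*Kdr* (VEGFR-2), the main signalling receptor of blood endothelium, gave 1554 and 1565 in young adult pools and 996 and 1073 in aged pools. Again both aged arrays were lower, with means of 1559 ± 8.01 (SD, n = 2 pools) and 1035 ± 55.1. The log2 difference was -0.59 (standard error 0.085, 95% confidence interval -0.85 to -0.34, limma FDR = 0.209), or 1.51-fold lower. Within the shared slide the differences were -0.56 for *Flt1* and -0.64 for *Kdr*, and between the other two arrays they were -0.64 and -0.54. Both folds lie just above the limit of 1.5. A normexp offset of 50 adds a constant to each intensity. With that offset, or with no background correction, 1 of the 9 genes passed the limit. This was *Flt1*, at log2 differences of -0.590 and -0.594. *Kdr* (-0.570 and -0.578) and *Vegfc* (-0.521 and -0.547) did not reach the limit in these settings.

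*Flt4* (VEGFR-3), the receptor of VEGF-C on lymphatic endothelium, was dim. It gave 72.5 and 75.03 in young adult pools and 49.8 and 62.9 in aged pools, and it was well above background on 3 of the 4 arrays, not on aged array 1. Both aged values were lower, but the log2 difference of -0.40 (standard error 0.15, 95% confidence interval -0.85 to 0.051, limma FDR = 0.417) was not past the threshold, and a fall as large as that of *Kdr* lies inside its interval.

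The 5′ flanks of the 3 genes are shown because these genes were called lower, and shared regulation was not tested. Each is the 250 bases before the annotated start of the gene, 5′ to 3′ on the gene's own strand, from RefSeq (GRCm38.p6), with capitals for the letters GGGCGG (the GC box bound by Sp factors), TATAAA (the TATA box) and GGAAGT (a core bound by ETS factors) on either strand, and the windows lie at chr5:147726012-147726261 (minus strand) for *Flt1*, chr5:75978456-75978705 (minus strand) for *Kdr* and chr8:54077282-54077531 (plus strand) for *Vegfc*.
*Flt1*: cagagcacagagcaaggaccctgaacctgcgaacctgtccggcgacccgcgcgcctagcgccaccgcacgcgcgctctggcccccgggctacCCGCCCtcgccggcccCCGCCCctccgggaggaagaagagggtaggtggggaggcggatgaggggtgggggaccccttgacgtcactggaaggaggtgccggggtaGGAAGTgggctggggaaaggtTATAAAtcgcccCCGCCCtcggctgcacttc
*Kdr*: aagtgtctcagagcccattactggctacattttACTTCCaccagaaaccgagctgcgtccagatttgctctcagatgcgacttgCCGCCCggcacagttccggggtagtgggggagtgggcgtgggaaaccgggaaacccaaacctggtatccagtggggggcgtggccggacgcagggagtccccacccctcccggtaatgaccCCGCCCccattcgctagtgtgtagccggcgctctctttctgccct
*Vegfc*: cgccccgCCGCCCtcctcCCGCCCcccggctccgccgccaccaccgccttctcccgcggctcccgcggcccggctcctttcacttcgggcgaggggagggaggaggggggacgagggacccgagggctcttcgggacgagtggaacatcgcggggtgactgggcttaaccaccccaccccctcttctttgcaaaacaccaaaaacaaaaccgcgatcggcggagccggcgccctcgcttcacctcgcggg

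These windows were rich in G and C, at 70.4% for *Flt1*, 61.6% for *Kdr* and 71.6% for *Vegfc*, against a median of 52.4% over all 32851 windows. The 9 genes had 11 windows, and each motif was searched on both strands. GGGCGG stood in a window of each gene and in 32.7% of all windows. TATAAA, present in 12.4% of all windows, was found for *Flt1* alone, 31 bases before the start. GGAAGT, present in 19.7% of all windows, was found for *Flt1* and *Kdr* and for none of the other 7 genes. The hypoxia response core was searched as ACGTG, which only *Vegfa* held (16.6% of all windows), and as GCGTG, which 7 of the 9 genes held (28.2% of all windows). These are matches of letters, and binding was not measured.

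Neither neuropilin was called. *Nrp1*, a co-receptor of *Kdr*, gave 1242 and 1041 in young adult pools and 984 and 893 in aged pools. The young adult arrays were themselves apart, and the log2 difference of -0.28 (standard error 0.13, 95% confidence interval -0.68 to 0.12, limma FDR = 0.501) was not past the threshold. *Nrp2*, which binds VEGF-C and class 3 semaphorins, gave 2726 and 2549 in young adult pools and 2634 and 2522 in aged pools. The ages overlapped, with a log2 difference of -0.032 (standard error 0.086, 95% confidence interval -0.29 to 0.22, limma FDR = 0.897), and its sign turned with the way its probes were combined and without young adult array 1.

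**Figure D2:**
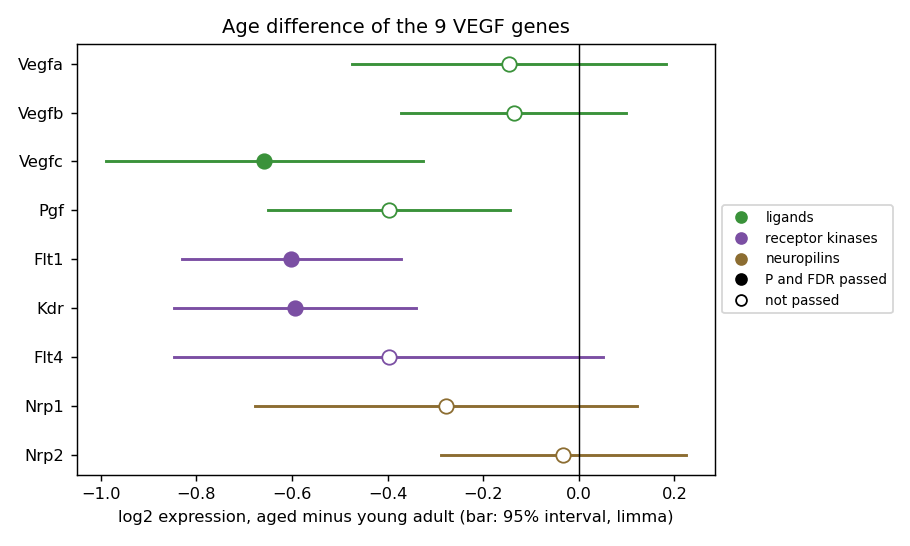
Log2 difference, aged minus young adult, of the 9 genes, coloured by role, with its 95% confidence interval from limma and filled points for the genes called. The intervals of *Vegfc*, *Pgf*, *Flt1* and *Kdr* lie below 0 and those of the other 5 genes cross it.

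Several genes had more than 1 probe, and the probes did not all give the same answer. In the fit of single probes, 4 of the 17 probes were called lower by limma (2.65% of all probes) and 0 were called higher (1.84% of all probes). At an unadjusted P below 0.05 the counts were 7 lower and 0 higher, against 7.26 and 6.21% of all probes. Of the 17 probes, 15 had a log2 difference below 0 and 14 were lower on both aged arrays than on either young adult array, an order found in 22% of all probes.

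The 4 probes of *Vegfa* differed most. The most intense, for the transcript NM_001025250, gave 2302 and 2187 in young adult pools and 1692 and 1647 in aged pools, a log2 difference of -0.43 (standard error 0.080, limma FDR = 0.237) that was called, but not with 75th percentile scaling (limma FDR = 0.256). The second probe of that transcript gave 813, 885, 675 and 673 in the same order of arrays (-0.33, limma FDR = 0.307), and the probe for NM_001025257 gave 523, 430, 421 and 364 (-0.28, limma FDR = 0.539). The dimmest probe, again for NM_001025250, gave 109, 119, 107 and 228. On these values 3 probes were lower on both aged arrays, and the dimmest was high on aged array 2 alone, with a log2 difference of 0.45 (standard error 0.43, limma FDR = 0.693) that became -0.097 without that array. Averaging the 4 probes thus gave *Vegfa* a smaller difference than 3 of them.

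Both probes of *Vegfc* (NM_009506) were lower in aged mice. The more intense gave 1369 and 1341 in young adult pools and 789.6 and 826 in aged pools (-0.75, limma FDR = 0.175), and it was called. The dimmer gave 85.5, 86.9, 51.1 and 66.0 (-0.57, limma FDR = 0.321) and was well above background on 3 of the 4 arrays. The 3 probes of *Nrp1* (NM_008737) had log2 differences of -0.25, -0.28 and -0.30, none of them called. The probes of *Nrp2* went in opposite directions: that of NM_001077406 gave 11188 and 11490.1 in young adult pools and 13920 and 12009 in aged pools (0.19, limma FDR = 0.555), and those of NM_001077403 and NM_001077407 had log2 differences of -0.12 and -0.17. *Vegfb*, *Pgf*, *Flt1*, *Kdr* and *Flt4* rested on 1 probe each.

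**Figure D3:**
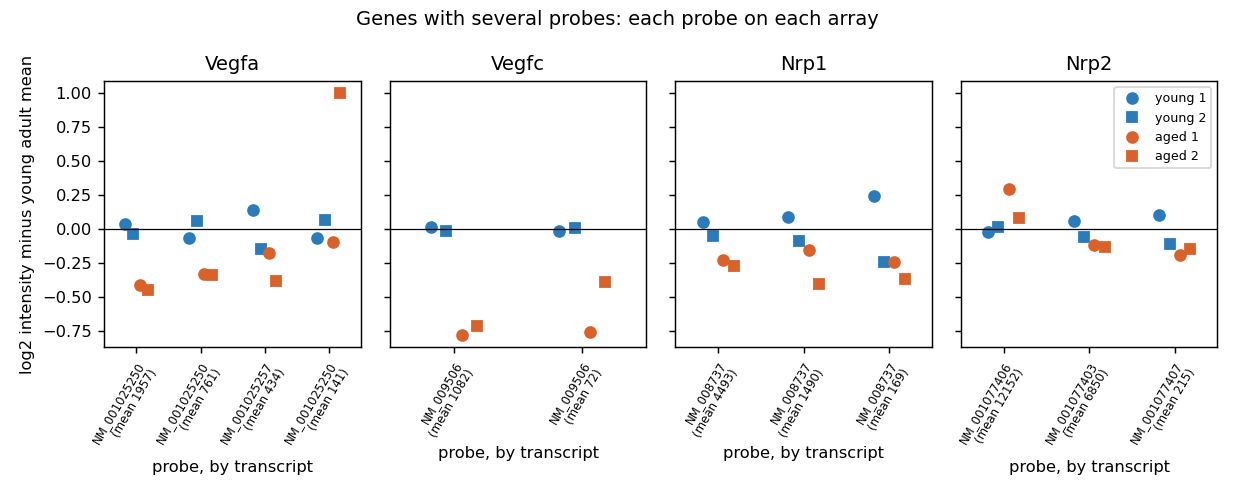
Log2 intensity of each probe of *Vegfa*, *Vegfc*, *Nrp1* and *Nrp2* on each of the 4 arrays (blue young adult, orange aged), minus that probe's young adult mean, with probes named by transcript and mean intensity. Aged array 2 stands above the rest for the dimmest *Vegfa* probe alone, and both aged arrays are higher for the most intense *Nrp2* probe.

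Receptor and ligand were then compared within each array, as the log2 ratio of receptor over ligand relative to its mean on the young adult arrays. The ratios below are descriptions of 4 arrays with no test of their own, and they show unequal differences, not levels of one gene against another. For *Flt1* over *Vegfa* the ratio was -0.33 and -0.59 on the aged arrays. For *Kdr* over *Vegfa* it was -0.40 and -0.50. The aged arrays were the lower ones in each pair. The *Vegfa* level used here includes the dim probe that was high on aged array 2, and the most intense *Vegfa* probe differed by -0.43, nearer to the -0.60 of *Flt1* and the -0.59 of *Kdr*.

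The ratio of *Flt1* to *Vegfb* was -0.41 and -0.52 on the aged arrays, and that of *Flt1* to *Pgf*, a ligand with a difference of -0.40 of its own, was -0.22 and -0.19. The ratio of *Flt4* to *Vegfc* was 0.20 and 0.32, which is not firm, since the *Flt4* probe and the dimmer *Vegfc* probe were not well above background on aged array 1. The ratio of *Nrp2* to *Vegfc* was 0.77 and 0.49, as *Vegfc* fell and *Nrp2* differed by -0.032. *Nrp1* over *Vegfa* gave 0.042 and -0.31, which overlapped the young adult arrays at 0.11 and -0.11. Over the roles, the median log2 difference was -0.27 for the 4 ligands, -0.59 for the 3 receptor kinases and -0.16 for the 2 neuropilins.

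**Figure D4:**
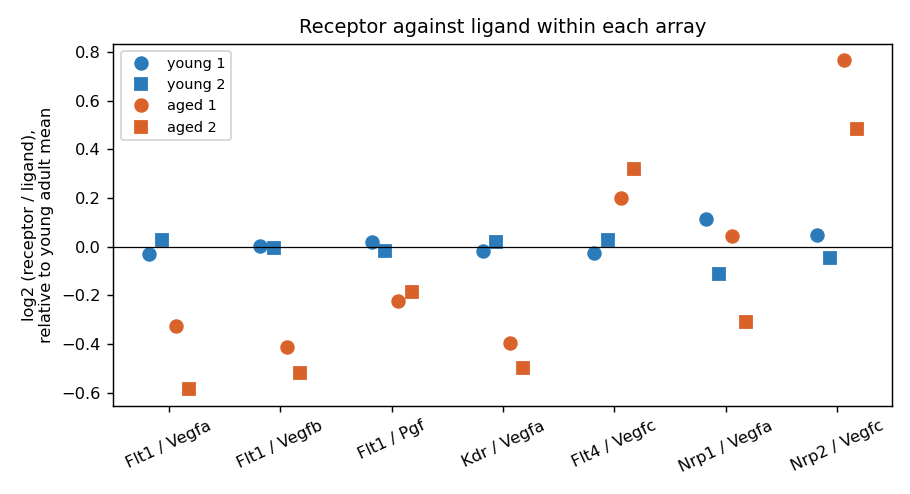
Log2 ratio of receptor over ligand on each of the 4 arrays (blue young adult, orange aged), relative to the mean of the young adult arrays, for 7 receptor and ligand pairs. The aged points of *Flt1* and *Kdr* over *Vegfa* lie below 0, and those of *Flt4* and *Nrp2* over *Vegfc* lie above 0.

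Of 67 other genes of the pathway that were measured, 6 were called lower by limma and 1 higher, against 2.33 and 1.65% of all genes, and their median log2 difference was -0.074. None of the 3 further genes of ligands and their processing was called. *Vegfd*, a ligand of *Flt4* that lies outside the 9 genes, gave 1137 and 1048 in young adult pools and 827 and 884 in aged pools (-0.35, limma FDR = 0.314), without overlap between ages. *Ccbe1* went the other way, also without overlap, at 479 and 451 in young adult pools and 580 and 618 in aged pools (0.37, limma FDR = 0.292). *Adamts3* (-0.048, limma FDR = 0.943) was well above background on 0 of the 4 arrays.

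Of 30 genes of receptor signalling, 2 were called lower and 0 higher, against 2.33 and 1.65% of all genes. *Ptprb*, the endothelial phosphatase that restrains *Kdr* and the angiopoietin receptor, gave 5449 and 4771 in young adult pools and 2978 and 3037 in aged pools, a log2 difference of -0.76 (limma FDR = 0.206). *Prkcb*, a protein kinase C, gave 241 and 237 against 172 and 181 (-0.43, limma FDR = 0.242), and it was not called with 75th percentile scaling (limma FDR = 0.286) or with its most intense probe (-0.32, limma FDR = 0.306). Both were lower on each aged array, and the median of the 30 genes was -0.072.

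The list of 7 genes that VEGF induces in endothelium had a median of -0.25. Of these, 1 was called lower and 0 higher, against 2.33 and 1.65% of all genes. This was *Esm1*, a secreted proteoglycan of endothelial tip cells, with 319.9 and 295 in young adult pools and 161 and 173 in aged pools (-0.88, standard error 0.095, limma FDR = 0.186). Both aged arrays lay far below both young adult arrays.

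Of 12 semaphorins and plexins, which share the neuropilins with VEGF, 1 was called lower and 1 higher, against 2.33 and 1.65% of all genes. Their median was -0.017. *Plxnd1*, the endothelial plexin, gave 1443 and 1555 in young adult pools and 989 and 970.4 in aged pools (-0.61, limma FDR = 0.208). *Plxna3*, a neuronal plexin that transmits semaphorin signals, gave 2669 and 2793 against 3736 and 3673 (0.44, limma FDR = 0.240). It was the sole gene of the pathway called higher in aged mice.

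Genes of the hypoxia response, which controls *Vegfa*, had 2 calls, 1 in each of its lists. Of 7 regulators 1 was called lower (14.3%) and 0 higher, with a median of 0.0040, and of 8 hypoxia-induced genes 1 was called lower (12.5%) and 0 higher, with a median of -0.17, against 2.33% of all genes called lower. *Egln3*, a prolyl hydroxylase that marks HIF for degradation, gave 382 and 352 in young adult pools and 245 and 253 in aged pools (-0.56, limma FDR = 0.220). *Ldha*, lactate dehydrogenase A, gave 14501 and 14861 against 9503 and 9341 (-0.64, limma FDR = 0.193). Both were lower on each aged array.

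Markers of several cell types were lower beside the VEGF genes. Of 12 markers of blood endothelium, the cells that carry *Flt1* and *Kdr*, 6 were called lower by limma and 0 higher, against 2.33 and 1.65% of all genes. All 12 were lower on both aged arrays than on either young adult array, an order found in 21.8% of all genes. Their median log2 difference was -0.50. Their summed normalized intensity was 34423 and 33569 in young adult pools and 22121 and 21377 in aged pools. The largest part of that sum was *Egfl7*, with 16368 and 15925 in young adult pools and 9499 and 9118 in aged pools. *Tie1*, an endothelial receptor kinase, was called, with 453 and 477 in young adult pools and 286 and 235 in aged pools (-0.84, limma FDR = 0.221). *Pecam1* and *Cdh5*, the junction proteins CD31 and VE-cadherin, had log2 differences of -0.33 and -0.39 that were not past the threshold (limma FDR of 0.361 and 0.335). The part of the endothelial markers in the values of *Flt1* and *Kdr* was not tested.

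Of 6 markers of lymphatic endothelium, 1 was called lower and 0 higher, against 2.33 and 1.65% of all genes. Their median was -0.048, with summed intensities of 25378 and 26080.1 in young adult pools and 20013 and 19669 in aged pools. The markers *Prox1*, *Lyve1* and *Pdpn* had log2 differences of 0.049, 0.10 and -0.013, and their arrays overlapped between ages. *Mmrn1* (-0.45, limma FDR = 0.264) and *Reln* (-0.083, limma FDR = 0.745) were lower on both aged arrays but not called. The call was *Ccl21a*, a chemokine of lymphatic vessels (-0.55, limma FDR = 0.211), named here after its value was seen. It made up most of the sum, with 16571.5 and 17608 in young adult pools and 11715 and 11681 in aged pools. *Vegfc* and *Flt4* are thus given beside lymphatic markers of which 3 of 6 did not separate by age, and a link between them was not tested.

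Of 6 pericyte markers 3 were called lower and 0 higher, with a median of -0.48, and of 5 smooth muscle markers 2 were called lower and 0 higher, with a median of -0.22. Over all genes the shares called were 2.33% lower and 1.65% higher. The summed intensities of pericyte markers were 22824 and 22852 in young adult pools and 22652 and 22772 in aged pools. Most of that sum is *Rgs5*, the single pericyte marker with a higher level in aged mice (0.17, limma FDR = 0.458), while *Pdgfrb* differed by -0.37 and *Cspg4* by -0.70. The sums of smooth muscle were 41625 and 39689 against 39067 and 37945, mostly *Tagln* at 29696 and 27989 against 29127 and 28336. Fibroblasts (3 of 5 called lower, median -0.70), macrophages (3 of 6, median -0.51), ensheathing and Schwann cells (3 of 6, median -0.54), osteoblasts (4 of 5, median -0.94), osteoclasts (3 of 5, median -1.16) and cartilage (2 of 6, median -0.30) also had markers called lower and none called higher.

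Of 6 markers of mature ORNs, limma called 0. At an unadjusted P below 0.05, 2 were higher and 0 lower, against 6.05 and 7.08% of all genes. All 6 were higher on both aged arrays than on either young adult array, an order found in 24.2% of all genes. Their median was 0.23. Immature ORNs had 1 of 5 called lower (median -0.34) and basal and progenitor cells 1 of 7 (median -0.30). In sustentacular cells 1 of 5 was called higher (median 0.13), and in secretory glands 2 of 5 were called lower and 1 higher (median 0.17). In ciliated cells 0 of 5 were called (median -0.034), with 1 lower and 0 higher at an unadjusted P below 0.05, against 7.08 and 6.05% of all genes. Over the 16 lists of 95 markers, 34 were called lower and 2 higher by limma, against 2.33 and 1.65% of all genes.

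**Figure D5:**
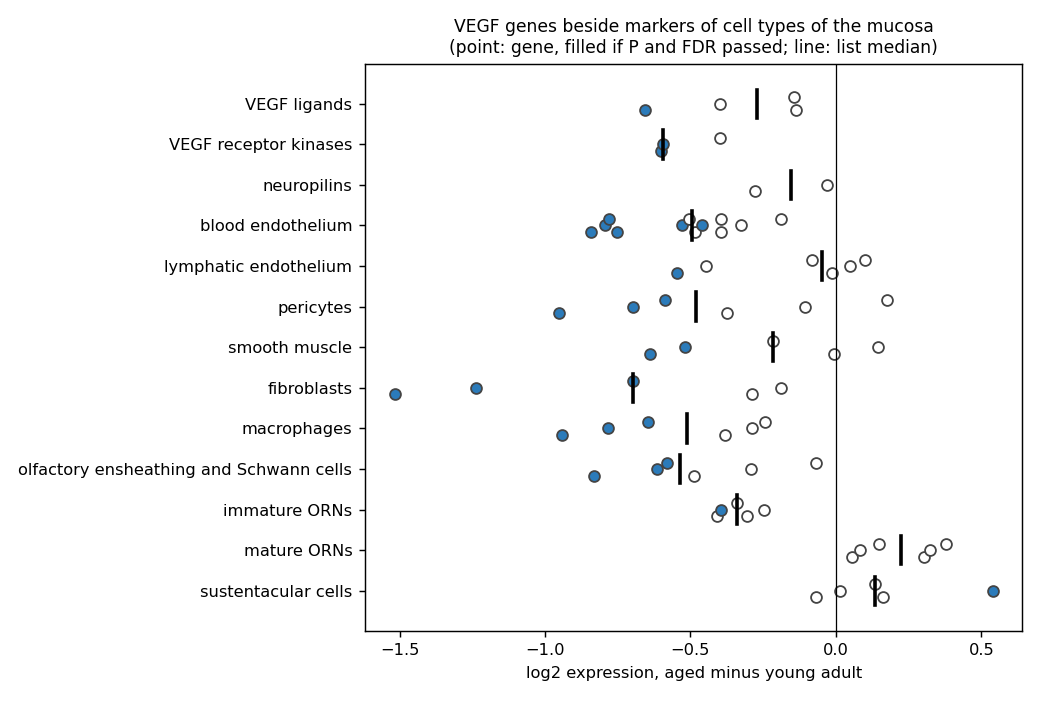
Log2 difference, aged minus young adult, of the genes of the 3 VEGF roles and of 10 of the cell type marker lists, with a point per gene, filled if called, and a line at the median of each list. The points of the receptor kinases and of blood endothelium all lie below 0, and those of mature ORNs all lie above 0.

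The genes whose 4 values were most like those of a called VEGF gene were found by the Euclidean distance between log2 values centred on each gene's own mean, over 15469 named genes whose mean expression reached 100. For *Flt1* they were *Ltbp4*, *Ism1* and *Maf*, at distances of 0.0215, 0.0252 and 0.0269. For *Kdr* they were *Carmn*, *Pcolce* and *Kdelr3*, at 0.0202, 0.0203 and 0.0246. The nearest genes to *Vegfc* were *Lrrc25*, *Sod3* and *Olfr1106*, at 0.0505, 0.0519 and 0.0575, so that its pattern had no neighbour as near as those of the receptors. All 9 neighbours were lower in aged mice, as the measure requires, and over 4 arrays such likeness describes these arrays only.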

How the data were processed

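RNA of 4 pools, 2 of young adult and 2 of aged mice, was measured on 1-color Agilent arrays. The authors scanned the arrays and deposited, for each of 62976 spots, the median intensity, the median local background intensity, a processed intensity of the scanner software and quality flags, without normalization between arrays. Per the file headers the array design uses mm9. The deposited value table of the series held the processed intensity (0 values differed). Other measurements of the study were not analysed here.

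The background was corrected with normexp (offset 0) in limma 3.58.1 (R 4.3.3). Control spots and 88 to 118 outlier-flagged spots per array were left out. Spots of a probe were averaged and quantile normalized as log2 values, and a gene's level was the log2 mean of its probes. Accessions were matched to the RefSeq table of GRCm38.p6, which named 32994 of 56605 probes (58.3%). The rest were tested under the identifier of the array, and 12 genes with a value missing on an array were dropped. Differences were fitted on all 4 arrays with limma (lmFit and eBayes, no covariates, 2 residual and 1.38 prior degrees of freedom), and the FDR was taken over all 45604 genes. The fit was tested on simulated data with independent noise for each gene and array. These data held no effect of slide or of mice shared between pools, so the test does not bear on such effects. The number of arrays limits the precision. Slides were examined as within-slide values.

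The members and lists were chosen with earlier results of these data known. Named were all 9 genes, the other pathway genes past both thresholds with a mean expression of at least 100, the first 3 symbols of each marker list described by gene, and the 3 nearest patterns of each called gene. *Vegfd*, *Ccbe1*, *Adamts3*, *Ccl21a*, *Mmrn1*, *Reln*, *Egfl7* and *Tagln* fell outside these rules and were named after their values were seen. The alternatives were other offsets, no background correction, the processed intensity, 75th percentile scaling, cyclic loess, flagged spots kept, dim probes left out, an intensity trend, the replicate number as a block, each array left out, the most intense probe and linear averages.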

Additional observations from a re-analysis of the deposited data

How the results depend on the processing

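The directions of the 9 genes were the same under the alternatives run, apart from *Nrp2*, at 0.19 with the most intense probe, 0.0754 with linear averages and -0.0806 to 0.0162 with each array left out, above 0 without young adult array 1. The dimmest *Vegfa* probe turned to -0.0320 within the shared slide and ranged from -0.0966 to 1.0004 with each array left out, below 0 without aged array 2. The count of the 9 genes called lower (3) rose to 5 with the processed intensity after quantile normalization, without dim probes, with an intensity trend and with linear averages, where the share of all genes called lower rose as well, from 2.33 to 5.14, 12.6, 7.71 and 3.51%. The count of their probes called lower (4) rose to 7 with an offset of 50 or no background correction, and to 9 with the processed intensity after quantile normalization, without dim probes and with a trend, which also called 1 probe higher. Of all probes, 5.54, 4.99, 5.77, 12 and 8.16% were then called lower, against 2.65%. The other pathway genes called lower and higher (6 and 1) became 10 and 3 with an offset of 16, 17 and 5 with an offset of 50, 15 and 4 with no correction, 13 and 4 with the quantile-normalized processed intensity, 20 and 6 without dim probes, and 19 and 8 with a trend. The all-gene shares lower and higher under these were 3.71 and 2.85, 5.43 and 4.62, 4.91 and 3.92, 5.14 and 4.45, 12.6 and 11.7, and 7.71 and 7.92%. Markers called lower (34) became 53, 57 and 55 with an offset of 50, without dim probes and with a trend, and those called higher (2) became 4 with an offset of 50, no correction or the quantile-normalized processed intensity, 9 without dim probes and 10 with a trend.

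With the replicate number as a block, 0 genes or probes of any of these sets were called by limma, as were 0 of all 45604 genes. Same-numbered deviations correlated at -0.0779. Number 1 also marks the shared slide, but the arrays numbered 2 lay on separate slides, so the numbers were not taken as pairs. With each array left out in turn an age had no replicate, so no calls are read from those fits. The log2 differences then ranged from -0.77 to -0.55 for *Vegfc*, -0.63 to -0.58 for *Flt1*, -0.65 to -0.54 for *Kdr*, -0.25 to -0.040 for *Vegfa*, -0.44 to -0.35 for *Pgf*, -0.57 to -0.23 for *Flt4* and -0.41 to -0.15 for *Nrp1*. *Kdr* was not called with the processed intensity scaled to the 75th percentile (-0.55, FDR = 0.259), and *Vegfa* was called with the most intense probe (-0.43, FDR = 0.230) and with linear averages (-0.34, FDR = 0.246). *Pgf* was called under 7 alternatives, *Flt4* with the quantile-normalized processed intensity (FDR = 0.230) and without dim probes (FDR = 0.181), and *Nrp1* with a trend (FDR = 0.199). *Prkcb* was not called under either 75th percentile scaling (FDR of 0.286 and, with the processed intensity, 0.363). The slide as a random block could not be fitted, since its correlation was not estimable. Signal over background limits *Flt4* and the dimmer *Vegfc* probe, neither well above background on aged array 1. The causes were not tested.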
